A study of Mus musculus with 2 samples.

Results

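The 9 genes described here, Itga3, Itga6, Itgb1, Itgb4, Lama3, Lamb3, Dst, Plec and Cd151, encode keratinocyte integrins, laminin-332 chains and hemidesmosome linkers. They were chosen by symbol from the 24346 genes listed in each of the 2 libraries, with no threshold on a measured value. Dorsal skin wounds of 1-day-old C57BL/6J pups, WT or PU.1-/- (labelled PU.1_KO), were harvested 24 h after a full-thickness cut, and the mRNA of whole wound tissue was sequenced as 1 library per genotype. The methods describe an incision of 1 cm, while the design text calls the wounds excisional. PU.1-/- mice lack the transcription factor PU.1 in all cells and are known for the absence of macrophages, neutrophils, mast cells and T cells. The number of pups behind each library is not given in the sources used here. There are no replicates, so no test between the genotypes was possible and no spread between animals can be given.

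Hemidesmosomes are the rivets that hold basal keratinocytes to the basement membrane. In them, integrin α6β4 binds laminin-332 on the outside and plectin and BP230 (a product of Dst) on the inside, while type XVII collagen and the tetraspanin CD151 stand beside it in the membrane. Lama3 and Lamb3 encode chains of laminin-332, which is also bound by integrin α3β1 in focal contacts. In a skin wound, keratinocytes at the edge take their hemidesmosomes apart, lay down laminin-332 and crawl over it to close the gap.

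Both libraries held the marker genes of skin. Krt14, a keratin of basal keratinocytes, reached 4659 FPKM in WT against 5195 FPKM in PU.1-/-. FPKM, the deposited unit, is the number of fragments per kilobase of exon, scaled to the number of mapped fragments. Levels of genes of different length can be set side by side only roughly, since each value rests on an assumed transcript length. Spi1, which encodes PU.1, had 35.4 FPKM in WT against 1.45 FPKM in PU.1-/-. The summed level of 6 macrophage markers was 480 FPKM in WT against 1.10 FPKM in PU.1-/-. The 4 Y-linked genes examined were above 0 in the WT library and all listed at 0 in the PU.1-/- library, so sex and genotype cannot be told apart. From the steps in which the lowest FPKM values moved, a depth of 1.38e+07 fragments in WT and of 1.58e+07 in PU.1-/- was estimated. Intervals in brackets after a ratio are exact binomial (Clopper-Pearson) intervals at 95% on read numbers estimated in this way. They cover counting error only, not the difference between animals and, for a ratio between genes, not an error in transcript length.

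Start sites are shown for Dst, because the deposited value of this gene adds up transcripts of very different kinds. RefSeq windows were found for 2 starts of Dst, one in front of long cytoskeletal forms and one further inside the gene, in front of the short transcript that encodes the epithelial form BP230. The GENCODE transcripts linked to RefSeq are 8788 nt long near the inner start and 17212 and 23251 nt long near the long-form start. Another long form, of 23201 nt, starts further out, at position 33908225, and its start is not shown. The 100 bases before each start (GRCm38, plus strand) are printed 5′ to 3′ together with those before a start of Lamb3, another gene of basal keratinocytes. Capitals mark GGGCGG, the GC box, which was searched on both strands.
Dst, long-form start, chr1:34011495-34011594: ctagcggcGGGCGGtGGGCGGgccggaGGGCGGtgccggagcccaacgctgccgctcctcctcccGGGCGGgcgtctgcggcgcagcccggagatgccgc
Dst, inner start, chr1:34160160-34160259: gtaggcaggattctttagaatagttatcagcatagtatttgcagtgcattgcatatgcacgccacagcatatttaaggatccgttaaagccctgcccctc
Lamb3, chr1:193301894-193301993: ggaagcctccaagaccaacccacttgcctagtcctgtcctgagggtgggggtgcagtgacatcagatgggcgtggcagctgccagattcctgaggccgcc
The long-form Dst window held 4 GC boxes, while the inner Dst window and the Lamb3 window held none. Among the other members with windows, the 100 bases before the outer starts of Cd151 and Itga3 held 2 and 1. Those before their inner starts and before the start of Itgb1 held none. Lamb3 therefore does not stand for the other members. In windows of 300 bases around each start the G and C content was 70.3% for the long-form Dst start, 46% for the inner one and 59.3% for Lamb3. Of all 32851 RefSeq windows of that length, 35.7% held a GC box. At 300 bases, the long-form Dst window held 4, the outer and inner Itga3 windows 3 and 1, the outer Cd151 window 2 and the Itgb1 window 1. Those around the inner starts of Dst and Cd151 and around the starts of Lamb3 held none. The gene-level FPKM of Dst does not say from which start its reads came.

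None of the 9 genes reached a ratio of 1.5 between the libraries in either direction. Over all genes listed, 7.67% were at least 1.5-fold lower in the PU.1-/- library and 5.79% higher by that factor, and at a ratio of 2 the shares were 4.34% and 2.32%. Among the 9762 genes that reached 5 FPKM in 1 or both libraries, the shares were 5.86% lower and 3.79% higher at 1.5-fold, and 3.13% lower and 1% higher at 2-fold. Taking the PU.1-/- level over the WT level, the 9 genes had a median log2 ratio of 0.13, with 7 above 0 and 2 below 0. In the 6538 genes that reached 10 FPKM in each library the median was −0.01, 48.9% were above 0, and the middle 50% of these genes lay between −0.14 and 0.14. The counting interval lay above 1 for 5 of the 9 genes, for none below 1, and it included 1 for the other 4. Such intervals are narrow for well-expressed genes: of the 6298 genes with 10 FPKM or more in each library and a linked transcript, which include all members but Lama3, 26.7% had an interval above 1 and 25.8% one below 1. All 9 had at least 5 FPKM in both libraries, so none was lost to a filter on low values. In bulk tissue, fewer cells of a type and less RNA per cell cannot be told apart.

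**Figure D1:**
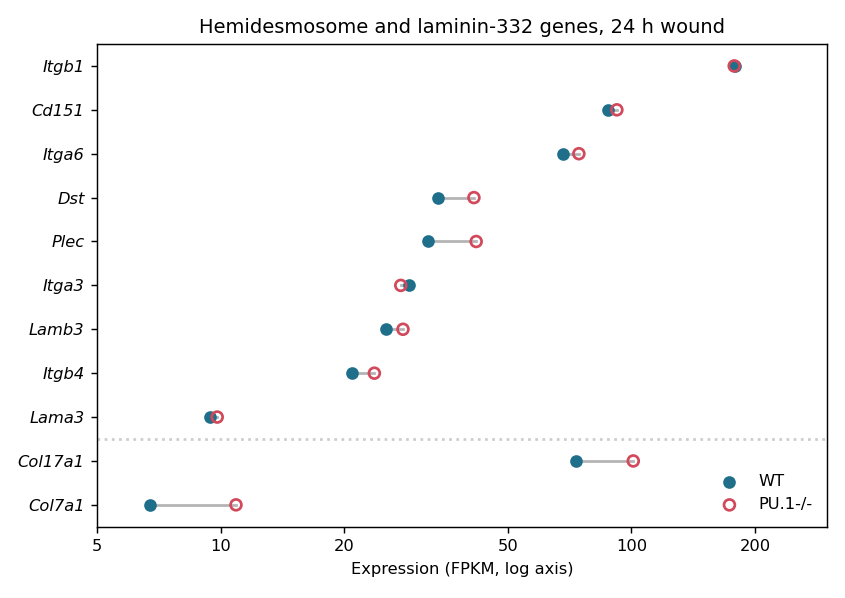
Expression of the 9 genes (above the dotted line) and of 2 anchoring collagen genes in FPKM on a log axis, with filled points for the WT library and open points for the PU.1-/- library, 1 library each. The order runs from Itgb1 near 178 FPKM to Lama3 below 10 FPKM in both libraries, and the gaps between the paired points are small for most of the 9.

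Itgb1 encodes the β1 chain, which pairs with many α chains in nearly every cell type. On chromosome 8 of GRCm38, from 128685654 to 128733579, it was the most abundant of the 9, at 178.2 FPKM in WT against 177.9 FPKM in PU.1-/-. This level lay above that of 97.9% of all genes listed in WT and of 98.0% in PU.1-/-. Its ratio of 0.998 (0.970 to 1.03) was the closest to 1 of the 9. Itga3, the α3 chain of the laminin-binding receptor α3β1, lies on chromosome 11 from 95044475 to 95076844. It had 28.7 FPKM in WT against 27.4 FPKM in PU.1-/-, giving a ratio of 0.956 (0.896 to 1.02) and the lowest of the 9.

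Itga6, the α6 chain that joins β4 in hemidesmosomes and β1 elsewhere, lies on chromosome 2 from 71786886 to 71858427. It was listed at 68.0 FPKM in WT against 74.5 FPKM in PU.1-/-, and its ratio of 1.09 (1.05 to 1.14) lay just above 1. Itgb4, the β4 chain with the long cytoplasmic tail to which plectin attaches, lies on chromosome 11 from 115974725 to 116008412. It had 20.8 FPKM in WT against 23.7 FPKM in PU.1-/-, giving a ratio of 1.13 (1.06 to 1.21). Both chains of the hemidesmosome integrin were thus slightly higher in the PU.1-/- library, and Itga3 was not. On the opposite strand to Itgb4, exons of B230344G16Rik cover 7.66% of its exon bases. The libraries were made with a stranded kit, but the strand setting used in counting is not given in the sources used here.

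Lama3, which encodes the α3 chain of laminin-332, lies on chromosome 18 from 12333417 to 12583013. It was the lowest of the 9, at 9.43 FPKM in WT against 9.80 FPKM in PU.1-/-, giving a ratio of 1.04 (0.939 to 1.15). Its linked transcripts differ in length from 5551 to 10548 nt, since the gene has a short and a long form of the chain, and the deposited value does not separate them. Lamb3, the β3 chain known from laminin-332, lies on chromosome 1 from 193294353 to 193343878. It had 25.3 FPKM in WT against 27.8 FPKM in PU.1-/-, giving a ratio of 1.10 (1.02 to 1.18). Neither chain was lower in the PU.1-/- library.

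The linkers showed the largest differences among the 9. Plec encodes plectin, a giant plakin that ties integrin β4 to keratin filaments in keratinocytes and is also abundant in muscle, where it holds the contractile fibres together. On chromosome 15, from 76170974 to 76231378, it had 31.9 FPKM in WT against 41.9 FPKM in PU.1-/-, giving a ratio of 1.31 (1.27 to 1.35). Dst encodes the plakin BP230 in epidermis and longer forms in nerve and muscle. On chromosome 1, from 33907888 to 34308662, it had 33.7 FPKM in WT against 41.3 FPKM in PU.1-/-, giving a ratio of 1.23 (1.18 to 1.28). The log2 ratio of Plec (0.39) was above that of 93.8% of the genes that reached 10 FPKM in each library, and that of Dst (0.29) above that of 89.95%. Markers of 2 other tissues that use plakins were higher in the same library: the 6 skeletal muscle markers had a median log2 ratio of 0.85 and the 4 Schwann cell markers a median of 0.64. Their part in the values of Plec and Dst was not tested. Parp10 shares 1.13% of the exon bases of Plec on the same strand, and antisense genes share 3.63% of those of Dst.

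Cd151, a tetraspanin that binds the laminin-binding integrins α3β1 and α6β4 within the membrane, lies on chromosome 7 from 141467362 to 141471481. It was the second most abundant, at 87.9 FPKM in WT against 92.1 FPKM in PU.1-/-, giving a ratio of 1.05 (0.983 to 1.12). The difference was within counting error. Gm10575 covers 7.04% of its exon bases on the opposite strand.

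**Figure D2:**
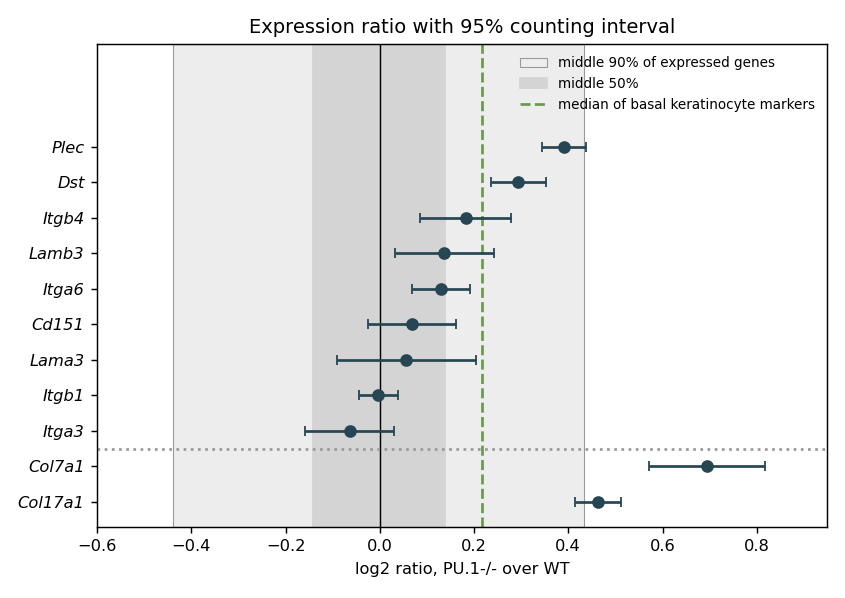
The log2 ratio (PU.1-/- over WT) of each gene with its 95% counting interval, the 9 genes above the dotted line and 2 anchoring collagen genes below it, over shaded bands for the middle 90% and 50% of the genes that reached 10 FPKM in each library and a dashed line at the median of the basal keratinocyte markers. Plec and Dst lie to the right of the dashed line, the other 7 to its left, while Col17a1 and Col7a1 lie to the right of all 9.

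The order of the 9 levels was nearly the same in both libraries, with 5 of the 9 genes at the same place. Itgb1 was 2.03 times (1.93 to 2.14) the level of Cd151 in WT and 1.93 times (1.84 to 2.03) in PU.1-/-, and Cd151 was 1.29 times (1.22 to 1.37) and 1.24 times (1.17 to 1.30) the level of Itga6. Below Itga6 came Dst, Plec, Itga3 and Lamb3, which changed places in pairs. Dst was 1.06 times (1.01 to 1.10) the level of Plec in WT and 0.987 times (0.955 to 1.02) in PU.1-/-, where the pair did not differ beyond counting error. Itga3 was 1.14 times (1.06 to 1.22) the level of Lamb3 in WT and 0.988 times (0.924 to 1.05) in PU.1-/-, again within counting error in the latter. Itgb4 and Lama3 closed the order in both libraries, with Itgb4 at 2.21 times (2.02 to 2.42) the level of Lama3 in WT and 2.41 times (2.22 to 2.62) in PU.1-/-. The linked transcripts of Dst run from 8788 to 23251 nt and those of Lama3 from 5551 to 10548 nt. The mix of forms could move ratios with these genes beyond the intervals given, which was not tested.

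Gene pairs were next set against each other within a library, where a scaling factor cancels, for 17 pairs in all. Some are partner chains, while others, such as Plec and Itga3, are not subunits of the same protein. The intervals of the 2 libraries overlapped for 9 pairs and stood apart for 8. For every pair, the gap between the libraries restates the ratios of its 2 genes and is no further evidence. These intervals, too, are narrow for well-expressed genes. The share that stands apart was not computed for other gene pairs, so the 8 cannot be read as particular to these genes. The level of Itga6 was that of its partner Itgb4 multiplied by 3.26 (3.08 to 3.47) in WT and by 3.15 (2.99 to 3.32) in PU.1-/-, intervals that overlap. Itga6 was at 2.37 times the level of Itga3 (2.24 to 2.51) in WT and 2.71 times (2.57 to 2.86) in PU.1-/-, intervals that do not overlap. Plec was at 1.11 times the level of Itga3 (1.06 to 1.17) in WT and 1.53 times (1.45 to 1.60) in PU.1-/-, the widest gap among the 17 pairs on the log2 scale. Plec and Itga3 had the highest and the lowest log2 ratio of the 9 genes, so this gap restates those ratios and adds no finding. Itgb1 was at 8.55 times the level of Itgb4 (8.10 to 9.03) in WT and 7.52 times (7.17 to 7.89) in PU.1-/-, again apart. For Itga6 over Dst the interval ran from 1.93 to 2.11 in WT and from 1.73 to 1.87 in PU.1-/-. The summed level of 6 α chains able to pair with β1 (Itga2, Itga3, Itga5, Itga6, Itga9 and Itgav) was 1.06 times that of Itgb1 in each library. Some of these also pair with other β chains, and further partners of β1 were left out of the sum.

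Among the laminin chains, Lamb3 was at 2.68 times the level of Lama3 (2.44 to 2.94) in WT and 2.83 times (2.61 to 3.08) in PU.1-/-, intervals that overlap.

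**Figure D3:**
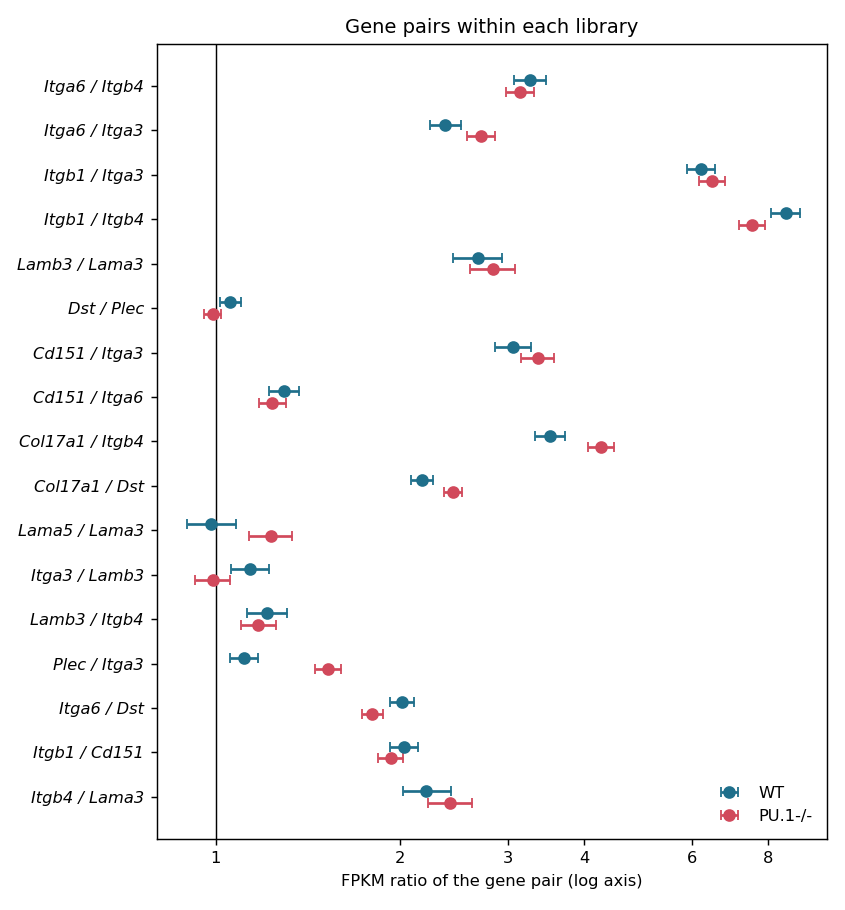
FPKM ratio of the 17 gene pairs within the WT library and within the PU.1-/- library on a log axis, with 95% counting intervals as bars and a line at equal levels. The intervals of the 2 libraries overlap for 9 pairs and stand apart for 8, which are Itga6 and Plec over Itga3, Itga3 over Lamb3, Itgb1 and Col17a1 over Itgb4, Itga6 and Col17a1 over Dst, and Lama5 over Lama3. The share that stands apart was not computed for other gene pairs.

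The 2 collagens of the anchoring complex had larger ratios than any of the 9 genes. Col17a1, the transmembrane collagen of the hemidesmosome, had 73.3 FPKM in WT against 101 FPKM in PU.1-/-, giving a ratio of 1.38 (1.33 to 1.43). Relative to Itgb4 it stood at 3.52 times (3.32 to 3.72) in WT and 4.27 times (4.07 to 4.48) in PU.1-/-. Col7a1, the collagen of the anchoring fibrils that tie the basement membrane to the dermis, had 6.73 FPKM in WT against 10.9 FPKM in PU.1-/-. Its ratio of 1.62 (1.49 to 1.76) made it the only one of these 11 genes past 1.5-fold. Of the 11, 9 were above a log2 ratio of 0 and 2 were below.

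Among the other 8 laminin chains, 7 had a log2 ratio above 0, with a median of 0.22, and 1 was past 1.5-fold. That one was Lama2, the α chain of muscle and nerve laminin, at 5.43 FPKM in WT against 8.40 FPKM in PU.1-/-. Lama5, the α chain of the laminin that stays in the mature epidermal basement membrane, had 9.27 FPKM in WT against 12.1 FPKM in PU.1-/-. Relative to Lama3 it stood at 0.983 times (0.898 to 1.08) in WT and 1.23 times (1.13 to 1.33) in PU.1-/-. The most abundant of these chains, Lamc1 and Lamb1, were at 59.6 and 44.1 FPKM in WT and at 67.3 and 48.1 FPKM in PU.1-/-.

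Of 11 other basement membrane genes, 10 had a log2 ratio above 0, with a median of 0.23, and 2 were past 1.5-fold on the higher side. These were Frem1 and Frem2, members of the complex that joins epidermis and dermis before birth, at 1.11 and 0.912 FPKM in WT and 1.87 and 1.43 FPKM in PU.1-/-. The counting intervals of Nid2, Col4a5, Col4a6 and Fras1 included 1. The share above 0 was 49.0% for genes above 0.1 FPKM in 1 or both libraries. The type IV collagen genes Col4a1 and Col4a2 were the most abundant, at 380 and 181 FPKM in WT and 407 and 205 FPKM in PU.1-/-.

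None of the 7 other integrin chains of keratinocytes was past 1.5-fold in either direction, and their median log2 ratio was 0.12. The most abundant was Itga5, the fibronectin-binding α5 chain, at 66.9 FPKM in WT against 60.8 FPKM in PU.1-/-, followed by Itgb5 at 31.9 and 36.7 FPKM. The 9 focal adhesion genes, which link β1 integrins to actin, had a median of 0.02, again with none past 1.5-fold. Ilk, the integrin-linked kinase, was at 97.1 and 95.7 FPKM, and Fermt2, a kindlin, at 52.3 and 67.3 FPKM. The 11 other plakins and desmosome genes, most of which belong to the junctions between keratinocytes, had a median of 0.08 and none past 1.5-fold. Macf1, which links microtubules to actin, had the highest of their log2 ratios, at 0.27. Perp and Pkp1, the most abundant of them, were at 1297 and 260 FPKM in WT and at 1269 and 274 FPKM in PU.1-/-.

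The tetraspanin family of Cd151 fell into 2 groups. The broadly expressed Cd63 and Cd9 were at 662 and 383 FPKM in WT and at 666 and 388 FPKM in PU.1-/-. The leukocyte tetraspanins Cd53 and Cd37 were at 33.5 and 7.22 FPKM in WT and at 0.0968 and 0.0634 FPKM in PU.1-/-, and they were the only 2 of the 54 companion genes at least 1.5-fold lower.

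The epidermal content of the libraries was read from marker genes, mostly keratins. The 4 basal keratinocyte markers were all above 0, with log2 ratios from 0.07 for Krt5 to 0.61 for Krt15, a median of 0.22 and summed levels of 6011 FPKM in WT against 6657 FPKM in PU.1-/-. Krt5 was at 1216 and 1273 FPKM, and Krt15, a keratin of resting basal cells, was at 74.9 and 114 FPKM. The 5 suprabasal markers measured of 6 listed had a median of 0.18, and the 4 wound-edge keratins a median of 0.14. These lists were not uniform, with 1 gene lower in each. The suprabasal marker Ivl had a ratio of 0.898 (0.815 to 0.990) and the wound-edge keratin Krt17 one of 0.926 (0.908 to 0.945). Relative to the basal median, 7 of the 9 genes were lower and 2 were higher in the PU.1-/- library, with Plec at 0.17 and Itga3 at −0.28 on the log2 scale. That split rests on the reference: 6 genes were lower and 3 higher relative to the summed level of the basal markers, and 3 were lower and 6 higher relative to Krt5 alone. Relative to the median, Col17a1 stood at 0.25 and Col7a1 at 0.48.

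Markers of other cells that carry these genes also differed between the libraries. Endothelial markers, from cells that carry α6 and β1 integrins, had a median log2 ratio of 0.27 (5 genes), and fibroblast markers a median of 0.26 (6 genes). The summed level of the skeletal muscle markers was 5612 FPKM in WT against 9950 FPKM in PU.1-/-, and that of the Schwann cell markers 20.04 and 30.4 FPKM. Of 5 platelet markers, Pf4 and Ppbp were at 635 and 72.0 FPKM in WT and at 2.35 and 0.217 FPKM in PU.1-/-. The defining markers Itga2b, Gp9 and Gp1bb were not 1.5-fold lower, at levels of 0.362 to 5.25 FPKM in WT. The 5 neutrophil markers summed to 12439 FPKM in WT against 3645 FPKM in PU.1-/-, with Ngp, Retnlg and Csf3r listed at 0 in the latter. The PU.1-/- sum came from S100a8 at 2129 FPKM and S100a9 at 1516 FPKM, a pair of genes that keratinocytes of wounds are also known to express. Smooth muscle markers had a median of −0.24 (4 genes). The part of any of these cells in the values of the 9 genes was not tested.

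**Figure D4:**
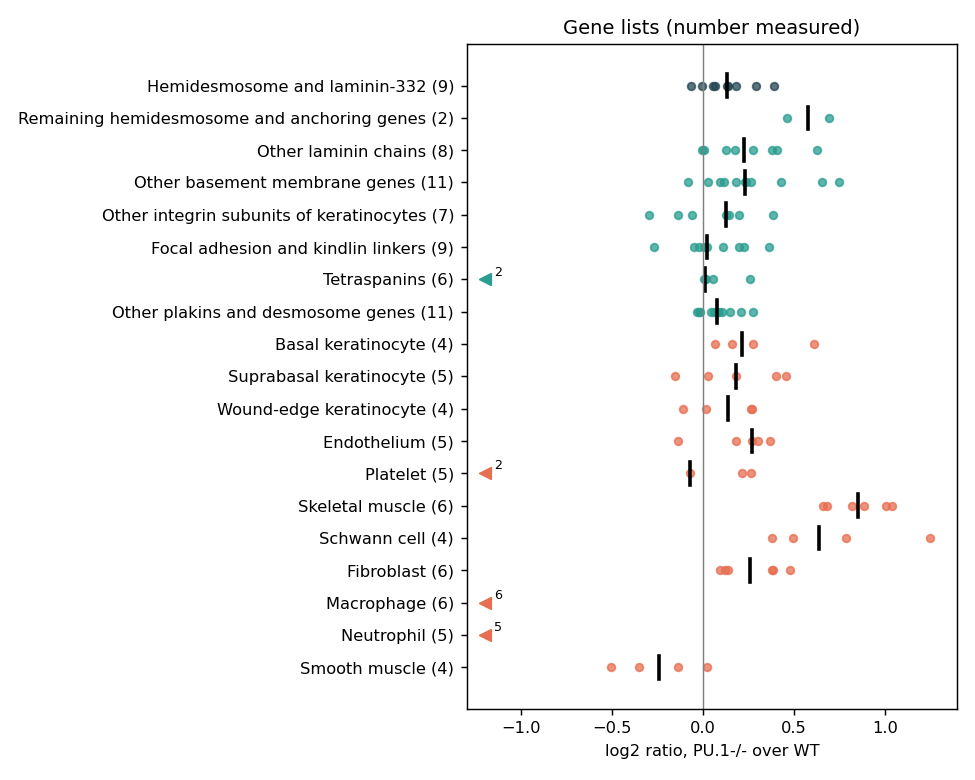
The log2 ratio (PU.1-/- over WT) of every measured gene of each list, as points, with the list's median as a vertical bar, for the 9 genes, 7 lists of related genes and 11 cell type lists. A triangle at the left edge gives the number of genes below −1.2. The points of the 9 genes lie between −0.06 and 0.39, the skeletal muscle markers lie between 0.66 and 1.04, and the macrophage and neutrophil markers are all beyond the left edge.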

How the data were processed

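Bulk mRNA of neonatal skin wounds, 1 library per genotype, was read as single-end reads of 75 bases, and base calls came from CASAVA 1.8.2. Reads were mapped to mm10 by the authors, who deposited FPKM values from Cuffnorm 2.2.1. The submitters' processing notes also name TopHat2 2.1.1, Bowtie2 2.2.8, SAMtools 0.1.18 and Cuffdiff 2.2.1. Neither the annotation nor any read filter is given in the sources used here.

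Values below 0.1 FPKM were raised to 0.1 before ratios were taken. In 459 low genes the WT value was 1.15 times the PU.1-/- value (tolerance 0.001), the ratio of equal read numbers. The WT depth was read from the peak formed by 94 of the 301 such genes with a single GENCODE M21 transcript over 700 nt, taking 200 nt off its length. Reads per gene were estimated with the shortest linked transcript. The functions were tested on simulated data. Positions and windows are from RefSeq on GRCm38.p6, the assembly of mm10; windows were found for 5 of the 9 genes. All 9 genes are named, with list genes past 1.5-fold at 1 FPKM or more, the 2 most abundant of each related list, and Spi1. One further gene was left out of every list and value and is not reported here. Lama5, Macf1, and the keratins and cell markers named singly, were picked once their values had been seen. The members and lists were chosen with earlier results of these data known. The tools were scipy 1.17.1, numpy 2.4.6, pandas 2.3.3 and matplotlib 3.10.9 in Python 3.11.15.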

Additional observations from a re-analysis of the deposited data

How the results depend on the processing

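Alternatives of floor, pseudocount, scaling and filter were tried. Under each of them, none of the 9 genes reached 1.5-fold or 2-fold. The scaling relative to the basal keratinocyte markers, which lowers every log2 ratio by 0.22, moved the median of the 9 genes to −0.086 and, among the related lists, gave medians of 0.36 for the anchoring collagens, 0.0079 for the other laminin chains, 0.016 for the other basement membrane genes, −0.19 for the focal adhesion genes, −0.20 for the tetraspanins and −0.14 for the plakins and desmosome genes. The other integrin chains of keratinocytes went from a median of 0.12 to −0.092. Equal FPKM sums raised every ratio by 0.05, which put Itgb1 at 0.04 and Plec at 0.44, both outside their counting intervals. Of the 9 genes, 7 were lower than the median of the basal markers, against 6 for their summed level and 3 for Krt5 alone, references chosen after seeing the data. Of 133 recomputed values, 114 stayed within counting error or kept their count to within 1.5 times, and 19 moved. Part of the 114 could not have moved, because all 9 genes lay above the floor and the filter and scaling cancels in a pair ratio. The count is thus no measure of stability. The pair ratios within a library were unaffected by scaling. No replicate could be left out, and no paired analysis was possible because each genotype has 1 library. Lama3 had the fewest estimated WT reads of the 9, about 695 with its shortest linked transcript of 5551 nt. Its form of 10548 nt would give more, so that rank is not settled.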
